A study of Mus musculus with 6 samples.

Results

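The SR proteins and the hnRNPs of cultured squamous cell carcinoma cells (SCCc) are described here from 3 libraries. The genes were taken by name: every Srsf gene with a number, every Hnrnp gene, Tra2a and Tra2b, and Ptbp1, Ptbp2 and Ptbp3. This gave 36 of 23698 rows, with 13 SR protein genes (11 Srsf and 2 Tra2), 20 hnRNP genes and 3 polypyrimidine tract binding (PTB) protein genes. The Hnrnpa1 row also carries the names Gm10052 and Gm5643, and the Hnrnpa3 row also carries Gm6793. SCCc are primary mouse back skin keratinocytes that carry oncogenic HrasG12V and a knockout of Tgfbr2, made from Tgfbr2 fl/fl cells, and they were taken at passages 10 to 15 in low-calcium medium. The line comes from earlier work and is tumorigenic in immunocompromised hosts, so the values describe a single cultured line and no tissue. For SCCc, 1 library of ribosome profiling was used with 2 of RNA-seq, and further SCC libraries were not analysed here. Wild-type keratinocytes were not analysed here, so each value is a level within SCCc, set beside the other genes of the same cells. In bulk libraries such as these, fewer expressing cells and less RNA per cell cannot be told apart.

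SR proteins carry RNA recognition motifs and a tail rich in arginine and serine, bind enhancers in exons and help the spliceosome to choose splice sites. The hnRNPs coat nascent transcripts and often act in the opposite direction, by hiding splice sites or exons, and the PTB proteins do so at pyrimidine tracts. Members of all these families control their own amounts by splicing: their pre-mRNA can take up a so-called poison exon with a premature stop codon, or keep or splice an intron, and the product is degraded by nonsense-mediated decay (NMD). Several SR proteins and hnRNPs, Srsf1 and Hnrnpa2b1 among them, are known as splicing factors with oncogenic activity in epithelial cells.

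The exon counts of the ribosome profiling library summed to 3549555, those of the first RNA-seq library (replicate 1) to 10707930 and those of the second (replicate 2) to 14003713. The markers of keratinocytes fitted the label. All 8 keratinocyte markers passed the filters given below, with Krt5 at 7965 and 9483 RPKM (counts per kilobase of counted length, scaled to the exon sum of the library) in RNA-seq replicates 1 and 2, and Krt14 at 4824 and 5362 RPKM. None of the 7 fibroblast, 4 immune and 3 endothelial markers passed, but Col1a1, Col1a2, Col3a1, Dcn and Lyz2 were above 1 RPKM in both RNA-seq libraries and had 0 footprints on the CDS, so their mRNA was not absent. The fibroblast markers summed to 513 and 1075 RNA-seq counts, with Col3a1 the most abundant at 3.89 and 5.49 RPKM, and the immune markers to 41.7 and 151, most of them from Lyz2 (2.71 and 8.56 RPKM), while Cd3e had 0 counts in every library. The endothelial markers summed to 26.1 and 37.5 counts, led by Kdr. Of the 4 melanocyte markers, which summed to 123 and 176 counts, only Pmel passed, with 115 and 155 counts and 2 footprints. Between the RNA-seq libraries, chi-square divided by its degrees of freedom was 7.52 over 9863 genes. That value takes each read as a separate molecule, which reads copied by PCR are not, so it shows no biological difference. The libraries were kept as separate replicates, as they are labelled. No source used here says whether they came from separate cultures, so their spread may be technical.

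The splicing factor mRNAs were abundant in SCCc. Together the 36 rows held 0.623% of the exon counts in RNA-seq replicate 1 (95% Wilson interval 0.618 to 0.628) and 0.569% in replicate 2 (0.565 to 0.573). They held 1.04% of the footprints (1.02 to 1.05), the mRNA fragments protected by ribosomes. These intervals, and all counting errors below, cover counting alone, since reads copied by PCR do not count separate molecules. A member was kept when its RPKM was above 1 in both RNA-seq libraries, its base mean (the mean count over the 3 libraries after scaling) was above 25, and its coding sequence (CDS) was counted and carried footprints. In total 35 of 36 members and 9863 of all genes passed. Srsf12 did not: it had 0.634 and 0 RNA-seq counts on exons and 0 footprints on its CDS, where a count of 0 allows up to 3 counts. The median RNA-seq level of the 35 members was 52.0 RPKM, against 15.3 RPKM over all genes that passed, and 30 of the 35 lay above that median of all genes.

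Srsf2 had the highest mRNA level among the SR genes, with 135 RPKM in replicate 1 and 139 RPKM in replicate 2. Srsf5 followed with 111 and 102 RPKM. Srsf6, Srsf1, Srsf9, Tra2a, Tra2b, Srsf11, Srsf7, Srsf4 and Srsf3 formed a continuous range from 64.3 down to 19.0 RPKM. Srsf10, a splicing repressor that is known to be activated by dephosphorylation, was lowest of the SR genes that passed, with 11.9 and 10.9 RPKM.

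Among the hnRNP genes the order was led by Hnrnpa2b1, whose protein binds RNA in splicing, export and trafficking, with 318 RPKM in replicate 1 and 277 RPKM in replicate 2. That placed it above 98.3% of all genes passing the filters. Hnrnpab had 169 and 152 RPKM, and Hnrnpu, a nuclear matrix protein that binds chromatin and RNA, had 144 and 121 RPKM. Hnrnpm, Hnrnpk, Hnrnpl, Hnrnpc and Hnrnph1 lay close together, between 91.2 and 115 RPKM, and their order changed between the replicates. At the other end stood Hnrnph3 with 9.55 and 8.25 RPKM, Hnrnpr with 7.07 and 5.89 RPKM and Hnrnpa1 with 4.90 and 4.93 RPKM. The value of Hnrnpa1 is uncertain. The gene has near-identical processed copies elsewhere in the genome, its row joins other gene names, and 309 of the 1119 nt of its annotated CDS were counted. Ptbp1, the PTB protein of most non-neuronal cells, had 94.1 and 99.5 RPKM, Ptbp3 had 62.7 and 49.7 RPKM, and the neuronal paralog Ptbp2 had 6.77 and 5.20 RPKM.

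**Figure D1:**
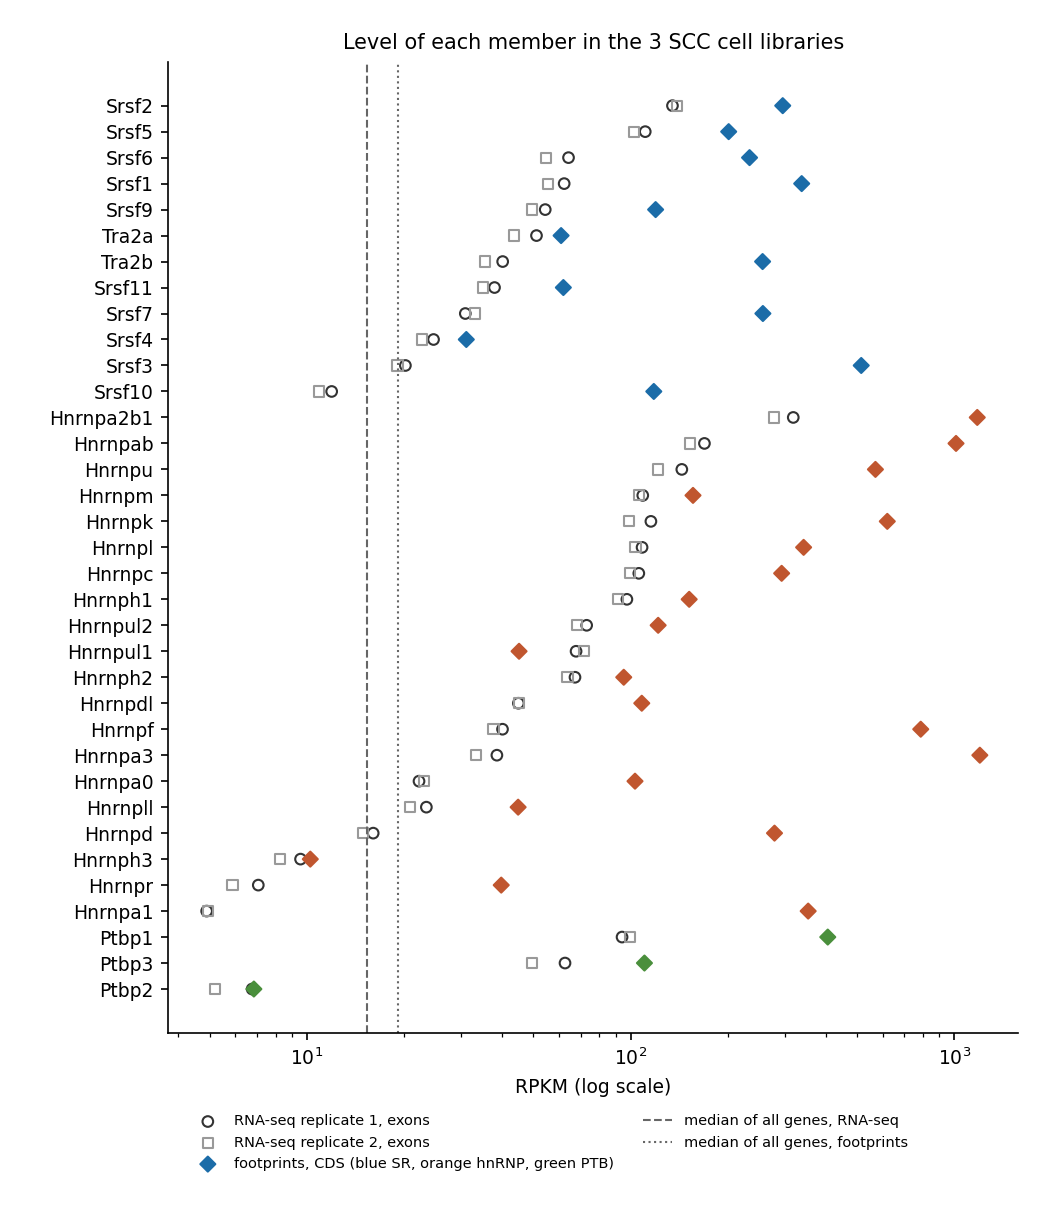
RPKM on a log axis for the 35 members that passed the filters, with open symbols for each RNA-seq replicate (exons) and diamonds for the ribosome profiling library (CDS). Vertical lines mark the medians of all 9863 genes, 15.3 RPKM for RNA-seq and 19.1 RPKM for footprints, and the diamonds of 33 members lie above the latter.

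Footprints were higher still. The median footprint level on the CDS was 201 RPKM for the members and 19.1 RPKM for all genes, and 33 of 35 members were above the latter, the exceptions being Hnrnph3 and Ptbp2. Translational efficiency (TE) was the log2 ratio of a gene's CDS footprint RPKM to its exon RNA-seq RPKM, averaged over both replicates, minus the median of that ratio over the 9863 genes. The members had a median log2 TE of 1.35, and 19 of 35 were above 1, a 2-fold higher footprint density per mRNA than the median gene. Of all genes, 20.8% were above 1. Below -1 there were 0 of 35 members, beside 21.1% of all genes. Without RNA-seq replicate 1 that count became 1 of 35, since Hnrnpul1 went from -0.97 to -1.02. The median was 1.24 for 12 SR genes and 1.5 for 20 hnRNP genes, an order that turned with RNA-seq on the CDS, at 1.15 and 0.93. With 1 ribosome profiling library in 1 condition no p-value was computed, and the error given for a TE is the SD over the 2 RNA-seq replicates. With RNA-seq on exons it ran from 0.02 to 0.26 over the members, and with RNA-seq on the CDS it reached 0.29, for Srsf2. The counting error, from footprints and RNA-seq together, ran from 0.02 to 0.24.

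All 12 SR genes that passed had a log2 TE above 0, beside 4931 of all 9863 genes. So had 18 of 20 hnRNP genes and 2 of 3 PTB genes. For the SR genes this did not hold under every setting. Without RNA-seq replicate 2, Srsf4 and Tra2a came to -0.00126 and -0.09. With at least 100 counts in every library they came to -0.34 and -0.37, and without a filter Tra2a came to -0.0141. Srsf1 and Tra2a came to -0.0139 and -0.08 when counts were not divided by length. Srsf3, the smallest SR protein, was highest: it had 516 RPKM of footprints on the CDS with 20.1 and 19.0 RPKM of RNA-seq on exons, a log2 TE of 4.38 ± 0.05 (SD, n = 2). This rests on 211 footprints over 115 nt, since 22.0% of the annotated CDS of Srsf3 was counted. Without division by length Srsf3 came to 1.41, below Tra2b at 2.12 and Srsf7 at 1.73. Srsf10 had 118 RPKM of footprints with 11.9 and 10.9 RPKM of RNA-seq, a log2 TE of 3.03 ± 0.08, again with a small counted part of 29.1%. Its log2 TE was 2.16 with RNA-seq on the CDS and 0.69 without division by length. For Srsf7, a zinc knuckle SR protein that also acts in mRNA export, 96.6% of the CDS was counted, and 256 RPKM of footprints stood against 30.8 and 33.1 RPKM of RNA-seq, a log2 TE of 2.66 ± 0.08. It was 1.67 with RNA-seq on the CDS and 1.73 without division by length.

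Tra2b, a homolog of fly transformer 2 that binds purine-rich exonic enhancers, differed from its paralog. Tra2b had 256 RPKM of footprints with 40.2 and 35.5 RPKM of RNA-seq, a log2 TE of 2.41 ± 0.12. Tra2a had 61.0 RPKM of footprints with 51.2 and 43.7 RPKM of RNA-seq, a log2 TE of 0.02 ± 0.15. The difference between the paralogs was larger than the replicate spread and the counting errors of 0.06 and 0.11, with higher footprints for Tra2b and higher RNA-seq for Tra2a. Srsf6 and Srsf4, close relatives with a long arginine and serine tail, differed in both measures. Srsf6 had 233 RPKM of footprints with 64.3 and 54.8 RPKM of RNA-seq, a log2 TE of 1.63 ± 0.15. Srsf4 had 31.1 RPKM of footprints with 24.6 and 22.6 RPKM of RNA-seq, a log2 TE of 0.05 ± 0.08. Without division by length their values were closer, at 0.84 and 0.45.

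Srsf1, the founding SR protein and a proto-oncogene, had 338 RPKM of footprints with 62.3 and 55.7 RPKM of RNA-seq, a log2 TE of 2.17 ± 0.10. Srsf2 was high in both measures, 295 RPKM of footprints with 135 and 139 RPKM of RNA-seq, so that its log2 TE was 0.77 ± 0.04. Srsf9 (0.86), Srsf5 (0.57) and Srsf11 (0.42) also lay between the median gene and a log2 TE of 1.

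**Figure D2:**
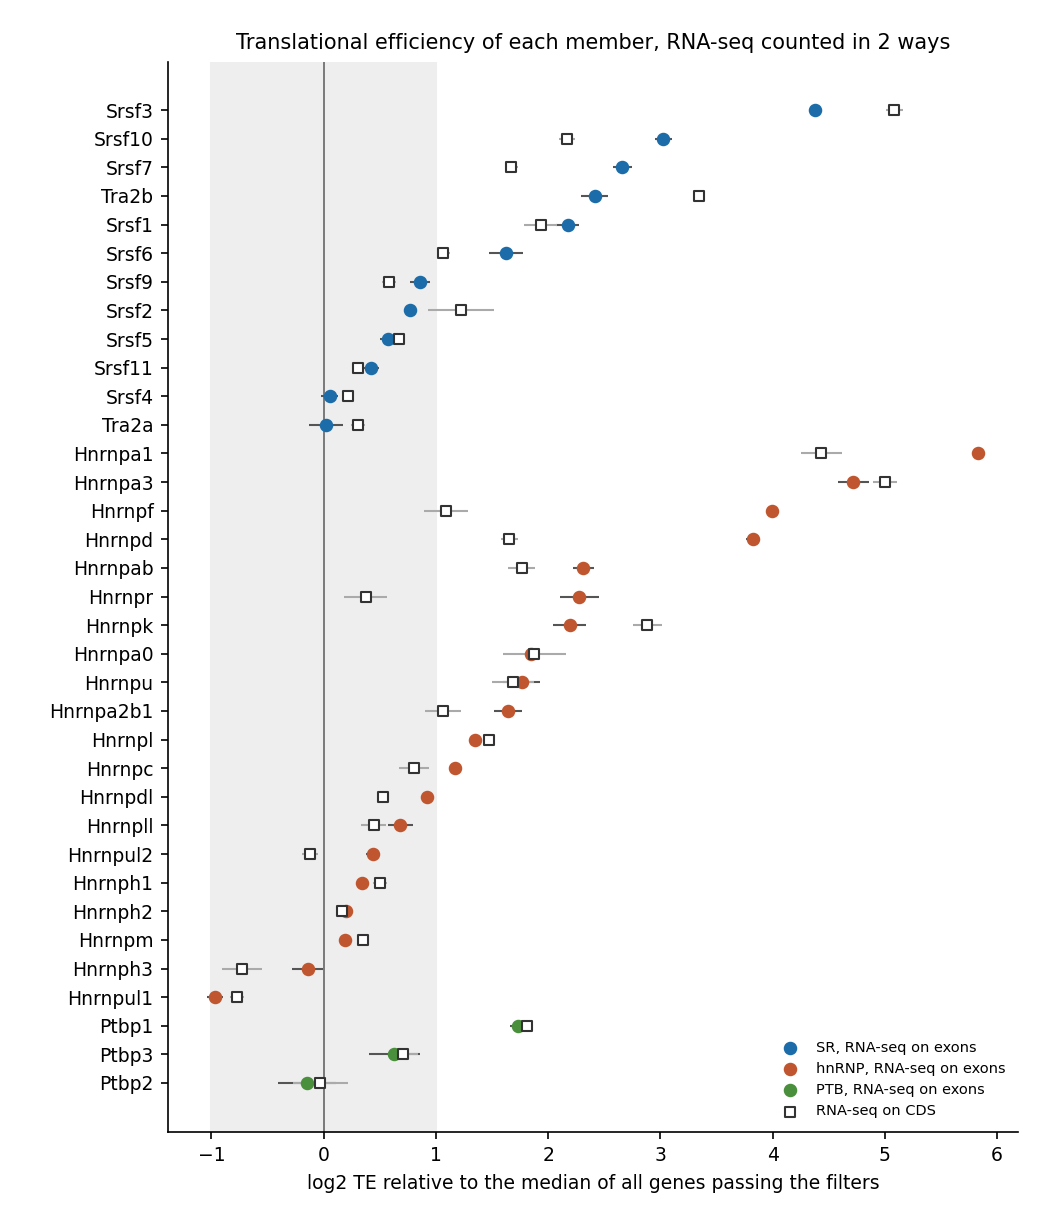
Log2 TE of the 35 members relative to the median of all genes, by family, with RNA-seq counted on exons (filled circles) or on the CDS (open squares) and the SD over the 2 RNA-seq replicates as lines. The grey band spans -1 to 1, and 19 circles and 18 squares lie to its right with 0 to its left.

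The exons of 9 members held positions counted as neither CDS nor UTR, which can be positions of noncoding transcripts or positions that transcripts of a gene class differently. For Srsf3, Srsf7, Hnrnpa2b1 and Srsf9 the number of such positions equalled the length of 1 annotated exon in GENCODE M21, on GRCm38, and that exon was part of an NMD transcript. The files hold no coordinates, so the match is one of length. The exon of Srsf3 has 456 nt (chr17:29039454-29039909, plus strand) and is exon 4 of 7 in its NMD transcript. That of Srsf7 has 460 nt (chr17:80204622-80205081, minus strand) and is exon 4 of 9. Both hold the stop codon of their transcript. The sequences around that stop, with the stop in capitals, are given next, with the stop of a coding transcript of the gene below each, since the place of the stop is what sets the transcripts apart:

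Srsf3, stop in the 456 nt exon (chr17:29039470-29039499): cttctcaccaccctcTGAatctgcattagc
Srsf3, stop of the coding transcript (chr17:29041394-29041423): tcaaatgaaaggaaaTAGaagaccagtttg
Srsf7, stop in the 460 nt exon (chr17:80205042-80205071): ttgagtcagtcgcctTGAttcagaatgtca
Srsf7, stop of the coding transcript (chr17:80201536-80201565): ccagaaagaatggacTGAagttctcaagtt

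In Srsf3 the stop in the exon ends the reading frame after 124 codons in place of 164, and it lies 548 nt before the last exon junction. In Srsf7 it ends the frame after 137 codons in place of 238, and it lies 699 nt before that junction. A stop far upstream of the last junction is a known mark of NMD targets, and both coding transcripts shown have their stop in the last exon.

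RNA-seq reads covered these positions and footprints nearly did not. In RNA-seq the 456 nt of Srsf3 received 105 counts (replicate 1) and 136 counts (replicate 2), or 23.1 and 29.9 counts per 100 nt, which was 153% and 139% of the density on the counted CDS. That CDS density rests on 17.4 and 24.7 RNA-seq counts, and the intervals given here for such percentages leave out the counting error of the CDS. In the ribosome profiling library they held 2.00 counts, against 211 on the CDS, a density 0.240% of that on the CDS (exact Poisson interval 0.0290 to 0.866%). The RNA-seq density was near that of the 3′UTR, 21.7 and 24.3 counts per 100 nt. The footprint density of 0.439 counts per 100 nt was likewise near that of the 3′UTR, at 0.526. The 456 nt were thus closer in density to the 3′UTR than to the CDS of Srsf3 in every library.

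The 460 nt of Srsf7 held 49.9 and 90.5 RNA-seq counts, or 13.5% (10.0 to 17.8) and 17.5% (14.1 to 21.5) of the density on the CDS, so the replicates overlapped within their counting intervals. Footprints there came to 1.49 counts, 0.357% of the CDS density (0.0254 to 1.53). In Hnrnpa2b1 the annotated exon of the same length, 136 nt (chr6:51461920-51462055, minus strand), lies past the stop of the matched NMD transcript, and belongs to 2 NMD transcripts and 1 coding transcript. The 136 nt held 151 and 143 RNA-seq counts, 17.7% and 14.9% of the CDS density, and 0.875 footprint counts, 0.154% (0.00248 to 0.942). Few footprints beside RNA-seq reads were also seen on the 3′UTR of both genes. For Srsf7 it had 0.530 footprint counts per 100 nt with 11.1 and 13.2 in RNA-seq, and for Hnrnpa2b1 1.39 with 61.8 and 54.8. The low footprint density does not set these positions apart from untranslated sequence. Length was the sole match, so whether the reads come from these exons was not tested. The 90 nt of Srsf9 (matched by length to chr5:115331450-115331539, plus strand) held 5.77 and 2.91 RNA-seq counts and 0.0606 footprint counts, and a difference was not detectable at this depth.

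**Figure D3:**
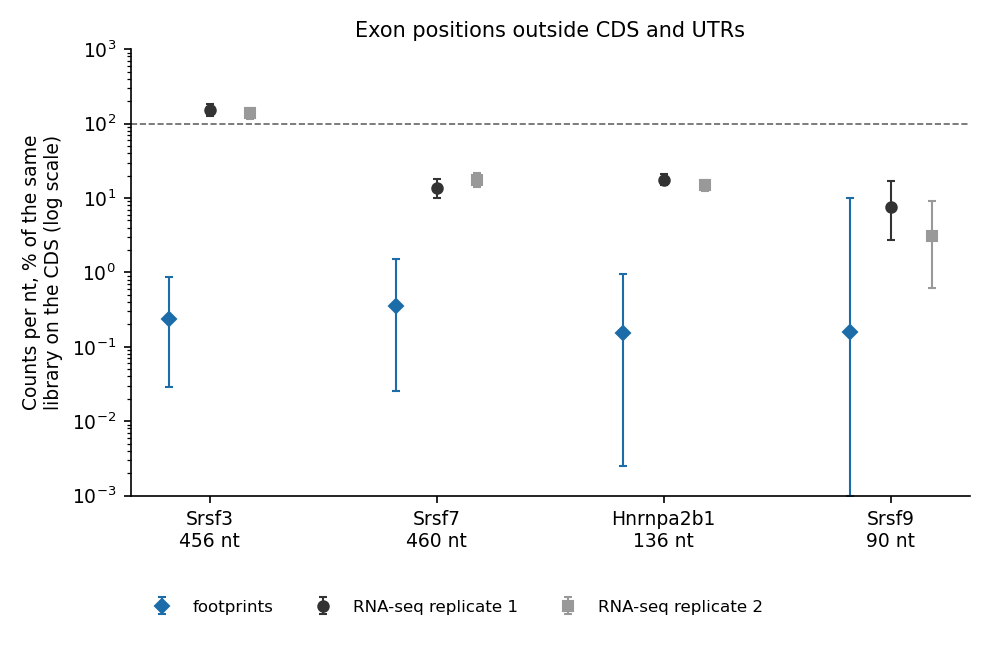
Counts per nt on the exon positions outside CDS and UTRs as a percentage of the density on the CDS in the same library (log axis), with exact Poisson 95% intervals. RNA-seq lies between 13.5% and 153% for Srsf3, Srsf7 and Hnrnpa2b1 and footprints at 0.357% or below, while for Srsf9 the intervals overlap and the lower end for footprints runs off the axis.

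The other 5 such members had no annotated exon of that length. Srsf1 had 192 nt outside CDS and UTRs with 338 footprint counts, 147% of its CDS density, and 346 and 444 RNA-seq counts, 213% and 179%. Footprint density was also above that of the CDS on the 117 nt of Hnrnpr (157%) and the 59 nt of Ptbp3 (148%). In Srsf1 these positions took 30.4% of all footprints on the exons. Neither these footprints nor the 192 nt enter its TE, which rests on the density over the counted CDS. On the 15 nt of Srsf11 the footprint density came to 147% from 4.83 counts, with an interval from 46.4 to 347%. The Hnrnpa1 row had 1965 nt of this kind with 7.06 footprint counts, 0.286% of the CDS density (0.116 to 0.588), and RNA-seq at 16.4% and 11.4%. Low footprint beside higher RNA-seq density was thus seen without a matched exon too. Across the 35 members the median RNA-seq share outside CDS and UTRs was 0%, as 26 members had no such position. Positions of this kind were present in 25.7% of members and 10.8% of all genes. Annotated NMD transcripts were more frequent among the members too, in 24 of 35 and in 11 of 12 SR genes that passed, beside 31.0% of all genes with an annotated transcript. Retained-intron transcripts were annotated for 27 of 35 members and 63.1% of all genes.

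The hnRNPs named A or A/B, which include the classic antagonists of SR proteins, all had a log2 TE above 1. So did 12 of 20 hnRNP genes in all and 20.8% of all genes. Hnrnpa1 had 354 RPKM of footprints with 4.90 and 4.93 RPKM of RNA-seq, a log2 TE of 5.83 ± 0.02 with a counting error of 0.11, and 4.43 with RNA-seq on the CDS or 3.89 without division by length. Hnrnpa3 had 1199 RPKM of footprints with 38.6 and 33.3 RPKM of RNA-seq, a log2 TE of 4.72 ± 0.14. Both come from joined rows with 27.6% and 21.8% of the CDS counted. Hnrnpa2b1 had 1177 RPKM of footprints, from 4275 counts, with 318 and 277 RPKM of RNA-seq, a log2 TE of 1.64 ± 0.13. It thus combined one of the highest mRNA levels with a footprint level above 98.3% of all genes. Hnrnpab (2.31 ± 0.09) and the intronless Hnrnpa0 (1.85 ± 0.05) were measured over 99.5% and 100% of their CDS.

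Hnrnpd, also called AUF1, binds AU-rich elements and directs mRNA decay. It had 278 RPKM of footprints with 16.0 and 14.9 RPKM of RNA-seq, a log2 TE of 3.83 ± 0.06 with the whole CDS counted, but 1.65 with RNA-seq on the CDS and 2.16 without division by length. Its relative Hnrnpdl had a log2 TE of 0.92 ± 0.02. Hnrnpk, a poly(C)-binding protein, had 621 RPKM of footprints with 115 and 99.0 RPKM of RNA-seq and a log2 TE of 2.19 ± 0.15. Hnrnpc, which binds uridine tracts of nascent transcripts, had a log2 TE of 1.17 ± 0.05. This fell below 1 with RNA-seq on the CDS (0.80) and without division by length (0.58). Hnrnpl, which binds CA repeats, had a log2 TE of 1.35 ± 0.04. The Hnrnpl paralog Hnrnpll was lower, at 0.68 ± 0.11, with 44.9 against 342 RPKM of footprints.

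The F/H group binds runs of guanines, and its members spread widely. Hnrnpf reached a log2 TE of 4.0 ± 0.05, but 26 of 1245 nt of its CDS were counted and carried 72.7 footprints. It came to 1.09 with RNA-seq on the CDS and turned to -0.29 without division by length. Hnrnph1 (0.34 ± 0.06), Hnrnph2 (0.20 ± 0.04) and Hnrnph3 (-0.14 ± 0.14) stood near the median gene, although Hnrnph3 came to -0.73 with RNA-seq on the CDS. Hnrnpm, which binds GU-rich sites, was also near it at 0.19 ± 0.02, although its mRNA reached 109 and 106 RPKM. Hnrnpr had a log2 TE of 2.28 ± 0.18 from 134 footprints, but 0.37 with RNA-seq on the CDS and 0.48 without division by length.

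The U group, which is Hnrnpu and its relatives, held the lowest log2 TE as computed here, that of Hnrnpul1. Hnrnpu had 571 RPKM of footprints from 4860 counts with 144 and 121 RPKM of RNA-seq, a log2 TE of 1.76 ± 0.16. Hnrnpul2 had a log2 TE of 0.44 ± 0.06, which turned to -0.12 with RNA-seq on the CDS. Hnrnpul1 had 45.2 RPKM of footprints with 67.8 and 71.9 RPKM of RNA-seq and a log2 TE of -0.97 ± 0.07. Without division by length Hnrnpul1 came to -0.186, above Ptbp3, Hnrnpf, Ptbp2 and, at -0.192, Hnrnph3. Hnrnpu and Hnrnpul1 differed by far more than the replicate spread, with 95.7% and 100% of the CDS counted.

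The TE of the PTB genes followed the order of their mRNA levels, except without division by length. Ptbp1 had 406 RPKM of footprints and a log2 TE of 1.73 ± 0.07, and Ptbp3 had 110 RPKM of footprints and a log2 TE of 0.63 ± 0.23, which turned to -0.46 without division by length, below Ptbp2 at -0.21. Ptbp2, whose mRNA Ptbp1 is known to send to NMD by exon skipping, had 6.85 RPKM of footprints from 38.8 counts and a log2 TE of -0.15 ± 0.26. The last value did not differ from the median gene beyond its spread, and was 0.04 without RNA-seq replicate 1.

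How much of a CDS was counted varied strongly. Under 50% of it was counted for 8 of 35 members: Hnrnpf, Hnrnpa3, Srsf3, Hnrnph2, Hnrnpa1, Srsf10, Srsf5 and, at 49.97%, Hnrnpr. Among all genes with an annotated CDS, 3.24% fell under this limit. The 8 members had a median log2 TE of 3.51, and the 306 genes under the limit had a median of 1.71. With RNA-seq on the CDS both medians were close, at 1.63 and 1.71. At 80% or more counted, still relative to the median of all 9863 genes, the median was 0.86 for 25 members and -0.06 for 8419 genes, and 11 of the 25 members were above 1 beside 18.4% of those genes, with 0 members below -1 beside 21.8%. Members with a nearly complete count therefore still had a higher median than all genes, but a lower one than the members as a whole. Whether the counted positions represent the rest of a CDS was not tested.

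**Figure D4:**
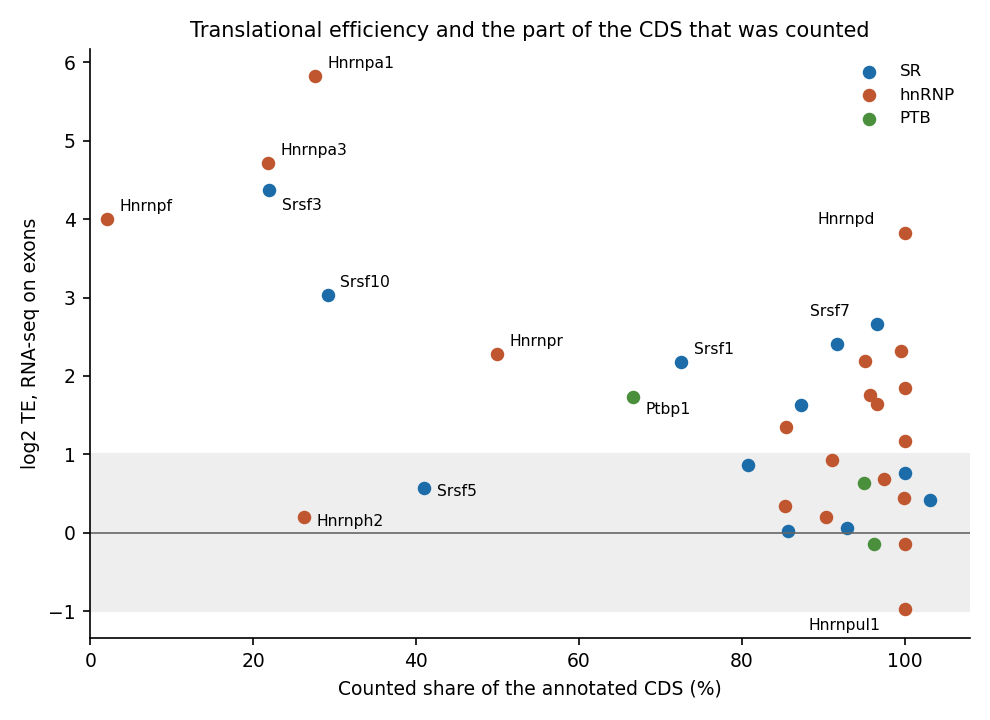
Log2 TE of the 35 members against the percentage of their annotated CDS that was counted, by family, with a grey band from -1 to 1. The values above 4 (Hnrnpa1, Hnrnpa3 and Srsf3) all belong to members with under 30% counted, while Hnrnph2 and Srsf5 lie within the band at 26.3% and 41.0%.

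The RNA-seq region mattered as well. With RNA-seq counted on the CDS in place of exons, the median log2 TE of the members was 1.06, and 18 of 35 were above 1 beside 18.3% of all genes, with 0 below -1 beside 19.5%. With at least 80% of the CDS counted as well, 11 of 25 members were above 1 beside 16.2% of genes, and 0 below -1 beside 19.9%. Hnrnpc (1.17 to 0.80) and Hnrnpr (2.28 to 0.37) were then below 1, and Srsf2 (0.77 to 1.22 ± 0.29) was above it, though within that SD. Hnrnpf went from 4.0 to 1.09, Hnrnpd from 3.83 to 1.65, Hnrnpa1 from 5.83 to 4.43, Srsf7 from 2.66 to 1.67, Srsf10 from 3.03 to 2.16 and Hnrnph3 from -0.14 to -0.73. In the other direction, Tra2b went from 2.41 to 3.35, Srsf3 from 4.38 to 5.08 and Hnrnpk from 2.19 to 2.88. For Hnrnpul2 the sign changed, from 0.44 to -0.12. Without division by length, Srsf3 came to 1.41, Srsf10 to 0.69, Srsf6 to 0.84, Hnrnpd to 2.16, Hnrnpr to 0.48 and Hnrnpc to 0.58, while Hnrnpl rose to 2.07 and Hnrnpm to 0.99.

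For some of these genes the RNA-seq density of the 3′UTR stood apart as well; its part in the shift was not tested. Hnrnpd has 5432 nt of counted 3′UTR, on which the RNA-seq density was 0.0270 of that on the CDS in replicate 1 and 0.0235 in replicate 2. Hnrnpr has 5418 nt, at 0.0423 and 0.0338. The median ratio was 0.485 for members and 0.615 for all genes, and 5.77% of all genes were under 0.05, so these 2 genes were among the lowest. The ratio was 2.29 and 2.09 for Hnrnpk and 2.05 and 1.57 for Tra2b. It was highest for Hnrnpa1 among the members that passed, at 3.27 and 2.42, but this rests on 56 counted nt of 3′UTR.

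Footprints outside the CDS were few but unevenly spread. A median of 5.42% of a member's footprints lay on the 5′UTR, beside 3.61% over all genes, and 24 of 35 members were above the latter. Over genes with at least 80% of the CDS counted the medians were 5.19% for 25 members and 3.45% for all. Srsf2 had 15.1% of its footprints on the 5′UTR (Wilson interval 12.8 to 17.7), Hnrnpa2b1 13.9% (13.0 to 14.9) and Tra2a 13.0% (9.17 to 18.2). In total 10 of 35 members exceeded 10%, as did 24.9% of all genes. These 3 and Tra2b (10.6%) and Hnrnpc (10.2%) had at least 85% of the CDS counted. The other 5, Hnrnpf, Hnrnph2 (15.4%, 10.4 to 22.2), Srsf5 (13.6%, 10.0 to 18.0), Srsf3 (12.0%, 8.61 to 16.7) and Srsf10 (10.9%, 6.55 to 17.9), had under 50% counted. The same cut was exceeded by 23.7% of the genes with at least 80% counted and by 37.3% of those under 50%.

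The 5′UTR share of footprints was low for others. Hnrnpl had 0.0862% (0.0271 to 0.360) on 21 counted nt of 5′UTR, Hnrnpm 0.341% (0.128 to 0.841), and Hnrnpdl and Hnrnpa1 had 0 footprints on 60 and 50 nt, which allows shares of up to 0.784% and 0.951% (Wilson). Hnrnpf had 69.0% there, with 962 nt of 5′UTR counted against 26 nt of CDS. Footprints on the 3′UTR had a median share of 1.03% for members and 0.973% for all genes. The highest member was Srsf9 with 3.95%, and Hnrnpf and Ptbp2 had 0 footprints on it, which allows up to 3.

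**Figure D5:**
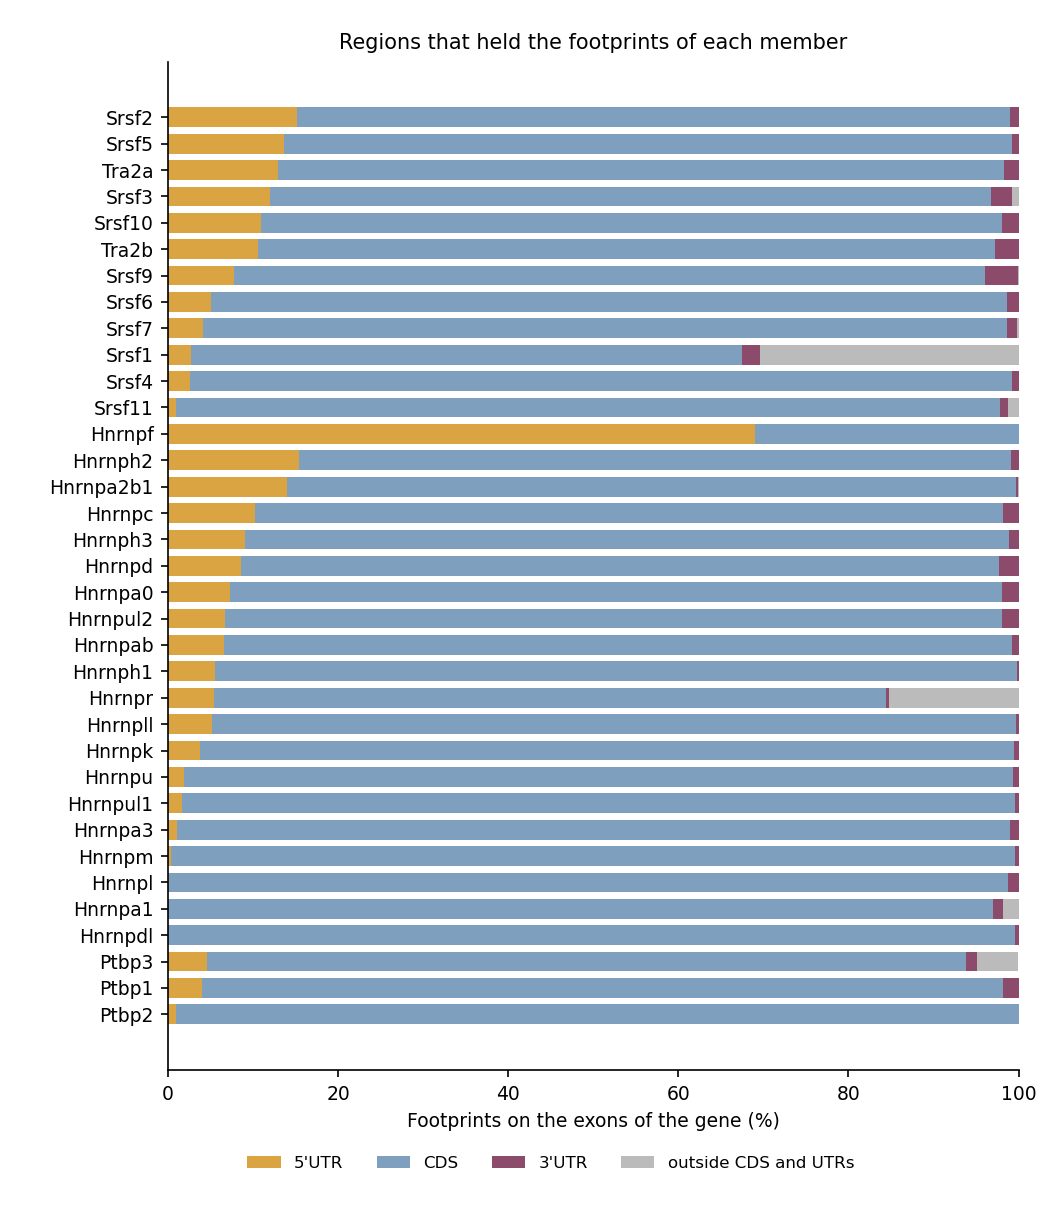
Share of the footprints on the exons of each member that lay on the 5′UTR, the CDS, the 3′UTR or positions outside them, in the single ribosome profiling library. The 5′UTR share runs from 0% for Hnrnpdl and Hnrnpa1 to 69.0% for Hnrnpf, and Srsf1 has 30.4% outside CDS and UTRs.

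The study asks how 5′ ends bear on translation, and 5′ terminal oligopyrimidine (TOP) starts, which place an mRNA under mTORC1, were therefore looked up. A TOP start was taken as a C followed by at least 4 pyrimidines at the first base of an annotated coding transcript in GENCODE M21. It was present for 4 of 35 members, all of them hnRNPs, and for 5.40% of 9450 genes. The first 20 nt of these transcripts, on GRCm38 and with the pyrimidine run in capitals, are shown because the call rests on these bases:

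Hnrnpa1 (chr15:103240454-103240473): CTTTCTgctctttgacgctg
Hnrnpa3 (chr2:75659261-75659280): CTCTTCCTCTCggtcccata
Hnrnpa3, second transcript (chr2:75659267-75659286): CTCTCggtcccatattgaac
Hnrnpa0 (chr13:58128537-58128556, minus strand): CTCTTTgtgtggtgtcccga
Hnrnpf (chr6:117917303-117917322): CTTCCTgcccggcaggcgct
Hnrnpf, second transcript (chr6:117923701-117923720): CTTTCagctacaaaaaattg

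The longest run, 11 pyrimidines, was in Hnrnpa3. Their log2 TE (5.83, 4.72, 1.85 and 4.0) was above 1, as in 12 of 20 hnRNP genes and 20.8% of all genes, but Hnrnpf turned to -0.29 without division by length. The whole CDS was counted for Hnrnpa0 alone, and the single coding transcript of Hnrnpa0 is the one with the TOP start. For Hnrnpa1, Hnrnpa3 and Hnrnpf, 1 of 3, 2 of 5 and 2 of 10 coding transcripts had one. None of the 12 SR genes that passed had an annotated TOP start. Which start these cells use was not tested, since annotated ends need not be those of SCCc.

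Other genes of the splicing machinery were set beside the members, in lists that were chosen, like the members, with earlier results of these data known. By definition the median over all genes is 0, with 20.8% above 1 and 21.1% below -1. The core snRNP and U2AF list, which recognises splice sites and catalyses splicing, had a median log2 TE of 1.20, with 22 of 37 genes above 1 and 0 below -1 (0.99, 18 and 0 with RNA-seq on the CDS). Among genes that reached 100 counts in each of the 3 libraries, its highest were Snrpf (3.93) and U2af1 (3.53), the small U2AF subunit that SR proteins contact at the 3′ splice site, and its lowest were Prpf8 (-0.94) and Aqr (-0.36). With RNA-seq on the CDS, Snrpf came to 2.85, below U2af1 at 3.69. Core spliceosome genes thus had a median near that of the SR genes, with partly counted genes included on both sides. Among the core genes above 1, Snrpd2, Snrpg, Snrpd1 and Snrpc had 20.9%, 32.5%, 34.5% and 37.4% of the CDS counted. Snrpf and U2af1 had 100% and 99.6% counted. Whether the medians stay close among genes with a nearly complete count was not tested.

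In the list of other splicing regulators the median was 1.02, with 11 of 22 that passed above 1 and 0 below -1 (0.70, 8 and 0 with RNA-seq on the CDS). It was led by the mRNA stabiliser Elavl1 (3.53) and by Tardbp (2.65), with Rbm5 (-0.82) and the epithelial regulator Esrp1 (-0.47) at the low end. With RNA-seq on the CDS, Elavl1 came to 2.32 and Tardbp to 1.54. Celf2 and Khdrbs3 did not pass.

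The SR-related proteins, large nuclear proteins with arginine and serine repeats, had a lower median of 0.18, which turned to -0.17 with RNA-seq on the CDS, with 2 of 20 above 1, Luc7l2 (2.51) and Rnps1 (1.62), and 3 below -1. Those were Scaf1 (-1.34), Sfswap (-1.33) and Son (-1.19). The values of Luc7l2 and Rnps1 rest on 49.6% and 36.9% of the CDS counted. The kinases and importers that act on SR proteins had a median of -0.37 over 10 of 11 genes, with 1 above 1 and 2 below -1 (-0.58, 1 and 3 with RNA-seq on the CDS). Their median was thus below that of all genes, while that of the SR proteins was above it.

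Among the kinases, Clk1 and Clk4, which phosphorylate SR proteins in the nucleus and are themselves known for introns kept in the nucleus, were lowest. Clk1 had 24.5 RPKM of footprints with 55.2 and 49.7 RPKM of RNA-seq, a log2 TE of -1.44 ± 0.09, and Clk4 10.7 RPKM of footprints with 24.2 and 23.5 RPKM, a log2 TE of -1.50 ± 0.02. Srpk2 (-0.81, but -1.34 with RNA-seq on the CDS), Clk2 (-0.76), Clk3 (-0.45), Dyrk1a (-0.29) and the cytoplasmic SR protein kinase Srpk1 (0.04) lay between -1 and 1, and Srpk3 had 0 and 0.931 RNA-seq counts. Of the importers, Tnpo1, which carries Hnrnpa1 and its relatives into the nucleus, had 118 RPKM of footprints with 23.5 and 19.8 RPKM of RNA-seq, a log2 TE of 2.10 ± 0.17. Its paralog Tnpo2 (-0.18) and Tnpo3 (-0.15), the importer of SR proteins, had values near the median gene.

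The members differed somewhat between the RNA-seq libraries. The log2 ratio of replicate 2 to replicate 1 had a median of -0.12 over the 35 members, beside -0.01 over all genes with an SD of 0.20. It was below 0 for 28 of 35 members and 52.7% of all genes. The ratio is over exons, and the regions covered could differ between the libraries. On the 3′UTR lay 69.3% and 57.6% of the Srsf2 counts in replicates 1 and 2, but 29.5% and 29.5% of the Hnrnpab counts. Srsf7 (0.10), Hnrnpul1 (0.09) and Ptbp1 (0.08) had the highest ratios and Ptbp2 (-0.38), Ptbp3 (-0.33) and Hnrnpr (-0.26) the lowest. The difference exceeded 2 counting errors for 17 of 35 members and 35.4% of all genes.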

How the data were processed

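From SCCc, 1 library of ribosome profiling was used with 2 of RNA-seq. Per the submitters' notes and the study's methods, reads were aligned to GRCm38 with STAR 2.6.1, footprint reads matching rRNA, tRNA or mitochondrial sequence were removed with Bowtie2 2.4.1, and Plastid counted each gene over exons, CDS and UTRs. The values deposited by the authors are estimated counts, not normalized and not always whole. The RPKM values deposited by the authors use a larger library total and entered 1 alternative only. RPKM was computed again from counts, counted length and exon count sums (numpy 2.4.6, pandas 2.3.3, scipy 1.17.1). Size factors came from DESeq2 1.42.0 on rounded counts, and an alternative scaling from edgeR 4.0.16. The calculation was tested on simulated data. Members and gene lists were chosen with earlier results of these data known. Every member could be named, as could every kinase, importer and marker, and in each list the 2 highest and 2 lowest genes that reached 100 counts in each of the 3 libraries. Son, Celf2 and Khdrbs3 were named after their values were seen. The list of hnRNPs under other names is not reported here. The CDS length counted was divided by the union of annotated CDS in GENCODE M21, whose release need not be the one the authors counted with (Srsf11 came to 103%). Alternatives covered the RNA-seq region, length, filters, scaling, pseudocount, counted CDS and each RNA-seq replicate left out.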

Additional observations from a re-analysis of the deposited data

How the results depend on the processing

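No paired analysis was possible because the single ribosome profiling library shares 1 replicate number with RNA-seq. The median log2 TE of all members was 1.06 with RNA-seq on the CDS, 0.84 without division by length, 1.09 with at least 100 counts in every library and 0.91 with at least 80% of the CDS counted. Each is relative to the genes kept, and the last is 0.86 relative to all 9863 genes. For the SR genes the 4 gave 1.15, 0.58, 0.85 and 0.87, and for the hnRNP genes the 4 gave 0.93, 0.95, 1.10 and 1.22. Chosen after seeing the data, RNA-seq on the CDS together with 80% counted gave 0.76, 0.87 and 0.85 for all, SR and hnRNP members, and leaving out the 2 joined rows gave 1.17 for all and 1.26 for hnRNP members. Members above 1 numbered 13 of 35 without division by length (19.2% of all genes), 16 of 32 with at least 100 counts (18.8%) and 11 of 25 with 80% counted, on exons (19.6%) or CDS (17.3%). Members below -1 numbered 1 without RNA-seq replicate 1 (21.2% of all genes) and 0 without replicate 2 (20.9%), and 1 with at least 100 counts (15.7%) or no filter (21.4%). The median RNA-seq level was 57.6 RPKM with at least 100 counts, and the median replicate ratio -0.0683 on the CDS. Without division by length Hnrnpf (-0.29), Srsf1 (-0.0139), Ptbp3 (-0.46) and Tra2a (-0.08) changed sign. So did Hnrnpul2 (-0.12) with RNA-seq on the CDS, Ptbp2 (0.04) without replicate 1, and Srsf4 (-0.00126) and Tra2a (-0.09) without replicate 2. These are 8 of 175 values of single members under the 5 settings that change the ratio of a gene. Leaving out 1 of 2 replicates cannot move a value by more than their SD, so those settings are no test against it. RNA-seq on the CDS moved 30 of 35 values by more than the SD, no division by length 32 of 35 and the pseudocount 2 of 35. The SD here is that of the TE with RNA-seq on exons, under every setting. The filters move every gene alike through the reference median, by -0.39 for 100 counts, so the member below -1 under 100 counts or no filter comes from that shift. So do the changes of sign of 5 of 32 members under 100 counts (Hnrnph1, Hnrnph2, Hnrnpm, Srsf4 and Tra2a) and of Tra2a without a filter. Library scaling cancels almost fully from TE and is no test of it. The median change over all genes was 0.11 without division by length and 0.12 with RNA-seq on the CDS and 80% counted. Fewer genes enter under the 100-count and 80% limits; otherwise the cause was not tested. Footprint depth limits Ptbp2 and Hnrnph3, with under 40 footprints each on the CDS.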
